A study of Mus musculus with 6 samples.

Results

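The 500 strongest FXR binding sites of control liver were described here. They were chosen by Peak Score, the normalised tag density that the peak caller gives each peak, from 20040 peaks called in control mice. A peak was eligible if its input value was at or under the 95th percentile of the input column, 1.85 on the log2 scale, which left 19038 peaks. FXR was immunoprecipitated from the liver of male C57BL/6 mice of 2 genotypes. The Bcl6 fl/fl controls (WT) carried floxed Bcl6 alleles without a Cre transgene, and the Alb-cre, Bcl6 fl/fl mice (LKO) carried the same floxed alleles together with Cre under the albumin promoter, which is active in hepatocytes and not in most other liver cells. For either genotype 2 libraries of FXR ChIP and 1 of input, chromatin sequenced without antibody, were made, so that the tables set FXR peaks with floxed Bcl6 intact beside those with it deleted in hepatocytes. The age of the mice was not given in the sources used here, nothing beyond separate titles shows that the 2 libraries of a genotype came from different mice, and loss of BCL6 itself is not measured by these files.

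FXR (Nr1h4) is the nuclear receptor that senses bile acids. It binds DNA mostly as a heterodimer with RXR at pairs of hexamers related to AGGTCA, classically inverted and 1 base apart (IR1), and in the liver it switches on bile acid export and, through the repressor SHP (Nr0b2), lowers bile acid synthesis. BCL6 is a zinc-finger transcriptional repressor that binds other sequences.

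The sequences of 6 members are shown whole, each 211 bp on the plus strand of mm10, because they hold the 3 highest scores, both sites at Nr0b2 and a site discussed below that had no LKO peak. Capitals mark stretches that match the IR1 consensus AGGTCANTGACCT, in which N is any base, with at most 3 mismatches in the 12 scored bases.
Ptgds, chr2:25472674-25472884: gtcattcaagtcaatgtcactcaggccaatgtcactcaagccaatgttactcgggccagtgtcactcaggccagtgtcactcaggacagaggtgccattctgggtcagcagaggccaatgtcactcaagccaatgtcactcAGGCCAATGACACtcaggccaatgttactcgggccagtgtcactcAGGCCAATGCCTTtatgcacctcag
Fcna, chr2:25628727-25628937: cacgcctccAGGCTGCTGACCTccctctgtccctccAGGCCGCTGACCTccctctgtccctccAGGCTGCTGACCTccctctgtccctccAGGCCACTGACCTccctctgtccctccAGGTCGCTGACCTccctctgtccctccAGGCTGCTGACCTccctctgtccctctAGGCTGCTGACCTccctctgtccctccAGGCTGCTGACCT
Arhgef7, chr8:11754811-11755021: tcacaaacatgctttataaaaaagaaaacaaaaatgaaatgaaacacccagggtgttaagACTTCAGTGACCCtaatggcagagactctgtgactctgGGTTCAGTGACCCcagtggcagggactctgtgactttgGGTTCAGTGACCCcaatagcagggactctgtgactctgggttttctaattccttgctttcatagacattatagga
Nr0b2 downstream, chr4:133557486-133557696: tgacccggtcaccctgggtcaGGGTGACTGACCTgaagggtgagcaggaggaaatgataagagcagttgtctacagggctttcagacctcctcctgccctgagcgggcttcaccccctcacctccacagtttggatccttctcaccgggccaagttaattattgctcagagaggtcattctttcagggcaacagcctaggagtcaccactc
Nr0b2 promoter, chr4:133552953-133553163: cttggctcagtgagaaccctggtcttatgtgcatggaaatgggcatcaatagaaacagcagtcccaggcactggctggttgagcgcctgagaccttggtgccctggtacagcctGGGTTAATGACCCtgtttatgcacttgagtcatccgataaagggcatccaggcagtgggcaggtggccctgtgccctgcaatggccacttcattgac
Trrap, chr5:144787970-144788180: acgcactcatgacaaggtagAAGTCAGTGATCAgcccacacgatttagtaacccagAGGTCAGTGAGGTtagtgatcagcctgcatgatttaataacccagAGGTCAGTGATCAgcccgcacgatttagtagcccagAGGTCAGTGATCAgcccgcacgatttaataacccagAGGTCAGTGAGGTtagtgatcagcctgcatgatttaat

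Single IR1 matches with 8 flanking bases are shown for the 5 highest-scoring members whose best match had at most 1 mismatch, and for 3 bile acid transporter genes, where the best match had 1 mismatch (Abcb11 and Abcb4) or 3 (Slc51b). Not shown are the transporter genes Slc10a1, whose best match had 5 mismatches, and Atp8b1. The Atp8b1 peak held no match of at most 2 mismatches and 1 of at most 3. Capitals mark the IR1 match.
Fcna, chr2:25628809-25628837: gtccctccAGGCCACTGACCTccctctgt
Myo1c, chr11:75661589-75661617: agatcaatAGGTCACTGGCCTctaaggtg
Usp18, chr6:121270309-121270337: ggctaggtGGGTCATTGACCTgagtgtta
Sqstm1, chr11:50197694-50197722: tgaacaccAGGTCAGTGACCGtggggcca
B4galt5, chr2:167319176-167319204: gacctctgAGGTCACTGACTTgcaggcta
Abcb11, chr2:69342659-69342687: ttgcttatAGGTCAATGGCCTaaagtcca
Abcb4, chr5:8928737-8928765: gcagagagAGGTCAATGATCTttacaggt
Slc51b, chr9:65422940-65422968: ccagtccaGGGTGAATGACCCcacgaatg

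The members were selected on the WT values that are given in this paragraph as a description. Peak Scores ran from 137.4 to 823, with a median of 178.5, against a median of 25.1 over all WT peaks. At the threshold, the last member, the Arid3a site, scored 137.4, while just outside it the Zbtb16 site scored 137.4 and the Dhx8 site 136.9. Arid3a and Zbtb16 were tied to the digits deposited, and the order of peak names decided between them. The input values of the members lay in 2 bands, 360 members between -0.06 and 0.36 and 140 between 1.18 and 1.36, so the highest was 1.36. The limit did remove strong rows. Of 688 rows scoring at least 137.4, 187 (27.2%, 95% Wilson interval 24.0 to 30.6%) were over it, led by sites assigned to Wwc2, Usp2, Slc9a8, Ccdc38 and Chl1 with scores from 447.8 to 469.7. The Slc9a8 row exceeded the limit narrowly, with an input value of 1.95, whereas Usp2 and Chl1 had 4.56 and 4.64. Over all 20040 WT peaks the limit kept 19038. The input values are regularized in the same table as the ChIP values. Their median was 0.06 over the members and -0.40 over the eligible peaks. Whether they follow ChIP strength was not tested, and nothing about input DNA is read from the bands.

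Depth differed between the libraries. WT replicate 1 held 19022618 tags, WT replicate 2 held 2883717, and the LKO libraries held 21287263 and 22637613. The median member held an estimated 301 tags in WT replicate 1, 75.1 in WT replicate 2, and 201 and 196 tags in LKO replicates 1 and 2. WT replicate 2 was above replicate 1 in 499 of 500 members on the deposited log2 scale, by a median of 0.73. For that reason levels of single sites are given below as relative log2 tags. Their reference, set at 0, is the median in the same library of all peaks shared by the WT and LKO lists. The deposited values are regularized, so 1 unit need not be a doubling of tags. Across the members the 2 WT libraries had a Pearson correlation of 0.894 and the 2 LKO libraries one of 0.954, over points that share the library and the scaling. Of the hepatocyte marker genes, 11 of 12 had a WT peak, against 2 of 10 for Kupffer cells, 4 of 9 for liver endothelial cells, 3 of 8 for stellate cells and 3 of 7 for cholangiocytes. A peak near a gene shows binding and not expression, and the share over all annotated genes was not computed. The counts therefore do not verify the labelled tissue. Transferrin was searched as Tf and not under its mouse symbol Trf, which was assigned the member of rank 429. The hepatocyte count thus misses a marker gene with a WT peak.

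The highest score, 823, belonged to an intergenic site 3030 bp upstream of Ptgds, which encodes a prostaglandin D synthase. Its relative log2 levels were 4.26 and 5.18 in the 2 WT libraries and 4.40 and 4.66 in the 2 LKO libraries. The LKO values lay between the WT values, and the overlapping LKO peak was also first in the LKO list. The second site, in the promoter of Fcna, a ficolin of innate immunity made by macrophages, scored 645, with WT levels of 3.92 and 4.77 and LKO levels of 3.65 and 3.80. Both LKO levels were below both WT levels there, and the LKO peak ranked 11. The third, in intron 1 of Arhgef7, a guanine nucleotide exchange factor, scored 509, with WT levels of 3.64 and 4.23 and LKO levels of 3.89 and 4.02, which again lay between the WT values.

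Ranks 4 to 9 were assigned to Gstt2 (a glutathione S-transferase, 468.8), Zfp36 (an RNA-binding protein that promotes decay of inflammatory mRNAs, 441), Slc8b1 (a mitochondrial sodium/calcium exchanger, 400.8), Mafg (a small MAF transcription factor, 399.9), Cks2 (a partner of cyclin-dependent kinases, 390.8) and Cdk8 (a kinase of the Mediator complex, 381.2). Their 12 WT levels lay between 3.25 and 4.09 and their 12 LKO levels between 3.23 and 3.86. The LKO peaks of these 6 sites ranked between 8 and 47. The site of rank 10, 74.6 kb from the non-coding gene 4921525O09Rik, was unlike them. It stood at 3.12 and 3.93 in WT and at 2.49 and 2.47 in LKO, its LKO peak ranked 298, and a second member of the same gene (rank 122) had a mean level of 2.74 ± 0.21 in WT and 2.08 ± 0.11 in LKO (SD, n = 2).

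**Figure D1:**
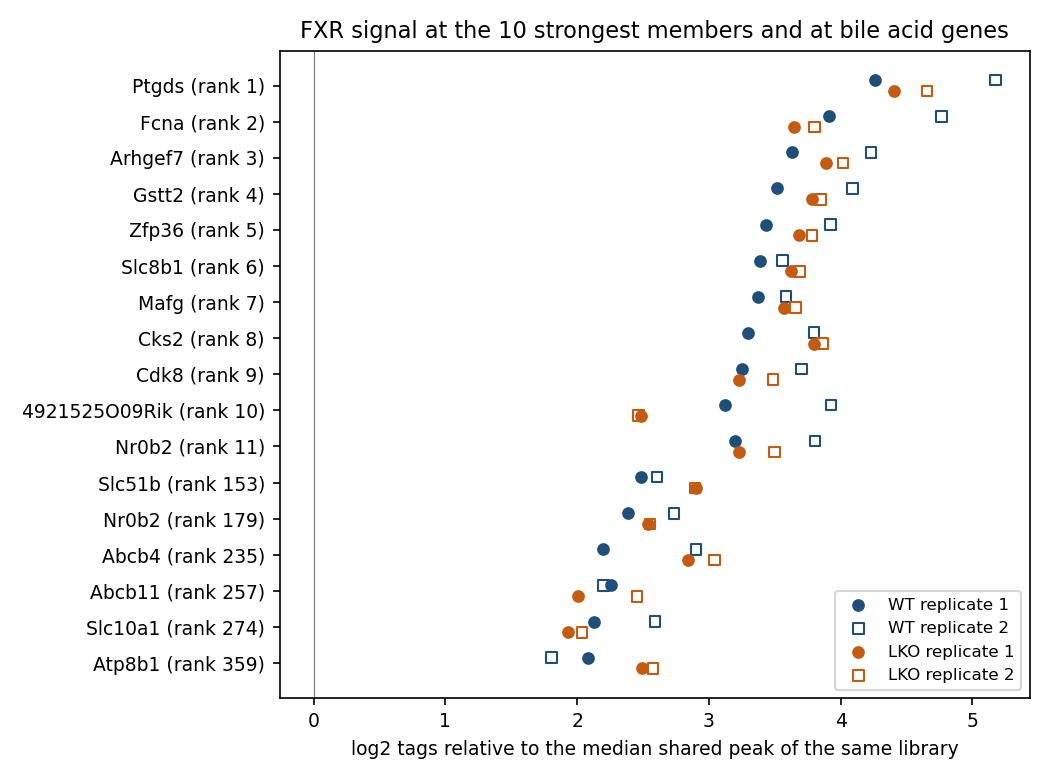
Relative FXR signal of the 10 highest-scoring members and of the members assigned to bile acid genes; each point is 1 library, the x axis is log2 tags relative to the median shared peak of the same library, and the vertical line at 0 is that median. WT replicate 2 (open blue squares) lies to the right of WT replicate 1 at most of these sites, by 0.91 at Ptgds, and the LKO points fall within or near the WT pair at most of the sites, with 4921525O09Rik to the left of it and Atp8b1 to the right.

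Members were assigned to 5 genes of bile acid and bile lipid transport and to Nr0b2. Of 13 genes of bile acid synthesis and conjugation, 12 had a WT peak and none had a member. Of 16 genes of bile acid and bile lipid transport, 14 had a WT peak and 5 of these had a member, and of 14 genes of FXR feedback, 11 had a WT peak and 1 had a member. Over all 9026 genes with a WT peak, 475 (5.26%) had a member, and with so few genes the counts of the synthesis and feedback lists were near that share. The best-ranked site of the synthesis genes belonged to Akr1d1, the steroid 5β-reductase, at rank 1066. A further Akr1d1 peak scored 202.7 but was over the input limit at 1.89, and a Cyp27a1 peak scored 144.7 with an input value of 1.87. Cyp7a1, the rate-limiting enzyme of the classical pathway, had 7 WT peaks with a highest score of 33.8 (rank 5934), and Cyp8b1, the sterol 12α-hydroxylase, had 1 WT peak with a score of 42.9 (rank 4183).

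Nr0b2, which encodes the FXR-induced repressor SHP, carried a pair of members. The downstream site lay 4215 bp past the start site at the end of the gene, scored 374.3 (rank 11), and had relative log2 levels of 3.20 and 3.81 in WT and 3.23 and 3.50 in LKO. The promoter site, 318 bp upstream of the start, scored 202.7 (rank 179), with 2.39 and 2.74 in WT and 2.54 and 2.55 in LKO. The LKO levels of both sites lay within the WT pair, and their LKO peaks ranked 19 and 254. The IR1 match of the downstream site, with 2 mismatches, was 78 bp before the peak centre, and the best match of the promoter site, with 3 mismatches, was 15 bp after it.

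The highest-scoring transporter site was in the promoter of Slc51b, the β subunit of the basolateral bile acid exporter OST, at 213.6 (rank 153). It stood at 2.48 and 2.61 in WT and at 2.90 and 2.89 in LKO, so the groups did not overlap. Abcb4, the canalicular phospholipid floppase, had an intronic site with a score of 185.8 and levels of 2.20 and 2.90 in WT and 2.84 and 3.04 in LKO, which overlapped. Abcb11, the bile salt export pump, had a promoter site 60 bp upstream of the start with a score of 177.6, and its WT levels of 2.26 and 2.20 lay inside the LKO range of 2.01 to 2.46. The site of Slc10a1, the basolateral bile acid uptake transporter NTCP, lay 7334 bp upstream with a score of 173.5, and was at 2.13 and 2.59 in WT and at 1.93 and 2.04 in LKO. Atp8b1, a canalicular phospholipid flippase, had a promoter site with a score of 155.2 that stood at 2.08 and 1.81 in WT and at 2.49 and 2.58 in LKO. Thus the LKO levels were above both WT levels at Slc51b and Atp8b1, below both at Slc10a1, and overlapping at Abcb4 and Abcb11. Such separation was common, since both LKO levels lay above both WT levels in 29.8% of all 9918 shared peaks and below both in 25.2%. Nothing particular to the transporter genes is therefore read from it. With 2 libraries in each genotype, an exact permutation test of a single site cannot give a two-sided p under 0.333, and because the 2 tables were also normalised separately no test was run.

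The remaining gene lists, given here and in the next paragraph, held between 1 and 5 genes with a member. Of their genes with a WT peak, between 3.33% (glucose and fatty acid metabolism) and 23.1% (clock) had a member, against 5.26% over all 9026 genes. Genes with a member had a median of 3 WT peaks and the other genes 1. The lists are small and were not tested, so no theme is read from them. Among 22 apolipoprotein and lipoprotein-handling genes with a WT peak, 5 had members, at Scarb1, Lrp1, Sdc1, Apoa5 and Apoe. Scarb1, the HDL receptor, had 3, all in intron 1, with scores of 294.9, 167.1 and 138.3. The Apoa5 site was in the promoter of this activator of triglyceride hydrolysis, 101 bp before the start, with a score of 153.4. The Apoe site (138.3) lay 1940 bp upstream of Apoe but at the end of the neighbouring gene Tomm40. Of 41 coagulation, complement and acute phase genes, 4 had a member. The promoter of C3, the central complement component, scored 358.3 (rank 15), and the rest were Fgb (fibrinogen β chain, 250.6), Serpinc1 (antithrombin, 178.5) and C8a (137.9).

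Of 24 genes of amino acid, urea and one-carbon metabolism, 4 had a member, namely Cth (cystathionine γ-lyase, 356.1), Pemt (phosphatidylethanolamine N-methyltransferase, 324.1), Ass1 (argininosuccinate synthase, 267.5) and Prodh (proline dehydrogenase, 152.5). Of 13 clock genes, 3 had a member, Bhlhe40 (226.9), Tef (157.9) and Per2 (143.3), and 3 of 14 genes of growth hormone and STAT signalling did, Igfbp2 (195.4), Stat5b (176.7) and Socs3 (141.5). Glucose and fatty acid metabolism was represented by Pck1, the gluconeogenic phosphoenolpyruvate carboxykinase, alone of 30 genes, with a score of 173. Drug metabolism and conjugation had Gsta4 (266.1) and Por (137.9) of 27 genes. The list of further nuclear receptors and coactivators, which left out those of the feedback list such as Nr0b2, had Rara (202.2) of 22. The autophagy and stress list had Sqstm1, encoding the selective autophagy receptor p62, and Gadd45b (175.3) of 19, and the hepatocyte transcription factors had Klf9 (368.8, rank 13) and Prox1 (198.6) of 14. Of the marker genes of liver cell types, as their symbols were searched, only the Kupffer cell gene Fcna had a member. The hepatocyte marker transferrin was searched as Tf, and its mouse symbol Trf was assigned the member of rank 429.

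The 500 members were assigned by distance to 475 genes, of which 452 had 1 member, 21 had 2 and 2 had 3. Slc6a6, the taurine transporter, was the other gene with 3 members, at ranks 72, 110 and 373 with scores of 271.2, 244.7 and 153.8. In 13 cases a pair of neighbouring members lay within 10 kb of each other, among them both Nr0b2 sites, both Sqstm1 sites, the pair at Inhbb (a subunit of activins and inhibins) and the pair at Mir122, the precursor of the most abundant hepatocyte microRNA. The nearest gene was not always the gene that held the site. Of 321 members in a gene feature whose transcript could be matched, 78 lay in a gene other than the assigned one. Both Sqstm1 sites were in introns of Mrnip, the Gadd45b site was in an intron of Gng7, the site assigned to Hnf4aos (rank 160) lay in intron 2 of Hnf4a, and the site assigned to Mir33 (rank 241) lay in intron 10 of Srebf2. These last 2 genes, which encode a master hepatocyte transcription factor and the sterol-responsive factor SREBP2, and Gata4 (the Neil2 site, rank 96) were the only listed genes without an assigned member that would gain 1 if the holding gene were used.

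By annotation class, 207 members (41.4%, 37.2 to 45.8%) were intronic, 178 (35.6%) intergenic and 68 (13.6%, 10.9 to 16.9%) in promoters. A further 20 were in exons, 15 at gene ends, 5 in 3′ UTRs, 4 in 5′ UTRs and 3 in non-coding transcripts. Over all WT peaks, 46.5% were intronic, 35.3% intergenic and 11.4% in promoters, so the intronic share of all WT peaks lay above the members' interval and the promoter share inside it. Over the 19038 eligible peaks the shares were 47.0% intronic and 10.5% in promoters, and both of these lay outside the members' intervals. The median distance to a start site was 13.9 kb, the same to these digits as over all WT peaks (13.9 kb). Within the list, promoters were more frequent towards the top, with 21 among ranks 1 to 100, then 18, 12, 9 and 8 in the following groups of 100. Only 1 member lay on chromosome X, 0.2% of members against 0.898% of WT peaks.

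**Figure D2:**
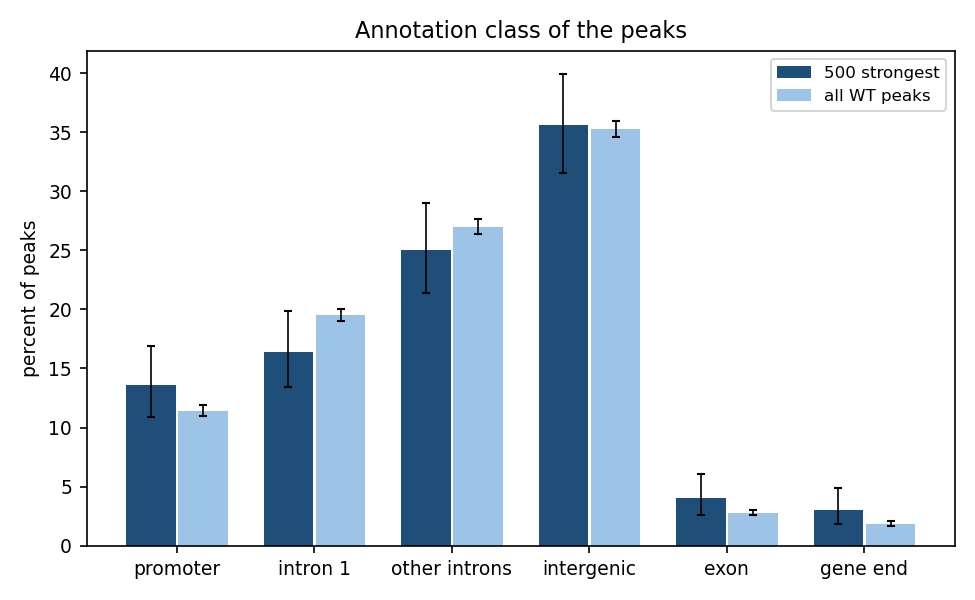
Percent of peaks in each annotation class for the 500 strongest members and for all 20040 WT peaks; introns are split into the first intron and the others, and error bars are 95% Wilson intervals. Intergenic sites are at 35.6% and 35.3% and promoters at 13.6% and 11.4%, while all introns together are at 41.4% of members and 46.5% of all WT peaks.

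An IR1 match with at most 2 mismatches lay within 100 bp of the centre in 137 members (27.4%, 23.7 to 31.5%). The share was 11.8% over all WT peaks and 1.0% in 1000 windows placed 2 kb to either side of the members. At most 1 mismatch was found in 27 members (5.4%, against 2.46% of all WT peaks), and 2 members, at Cnn3 and in intron 1 of Trp63, held the consensus exactly. The sites were close to the peak summit, with a median distance of 9 bp from the centre, and 80.3% were within 20 bp. Promoter members had a match in 14.7% (8.2 to 25.0%) of cases and the other members in 29.4% (25.3 to 33.9%). In the next 500 peaks (ranks 501 to 1000) the IR1 share was 29.2%, and it was 8.22% among ranks 15001 to 19038.

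Within the 137 matches bases 2 and 3 of the consensus were G in 94.2% and 93.4%, and the mirrored bases at positions 11 and 12 were C in 92.0% and 91.2%. The most variable scored positions were the first, which was A in 69.3% and G in 19.0%, the fourth, which was T in 70.8%, and the tenth, which mirrors it and was A in 70.1%. The spacer base was mixed, with shares from 20.4% for A to 29.9% for G. These frequencies follow in part from the search, which allowed at most 2 departures.

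**Figure D3:**
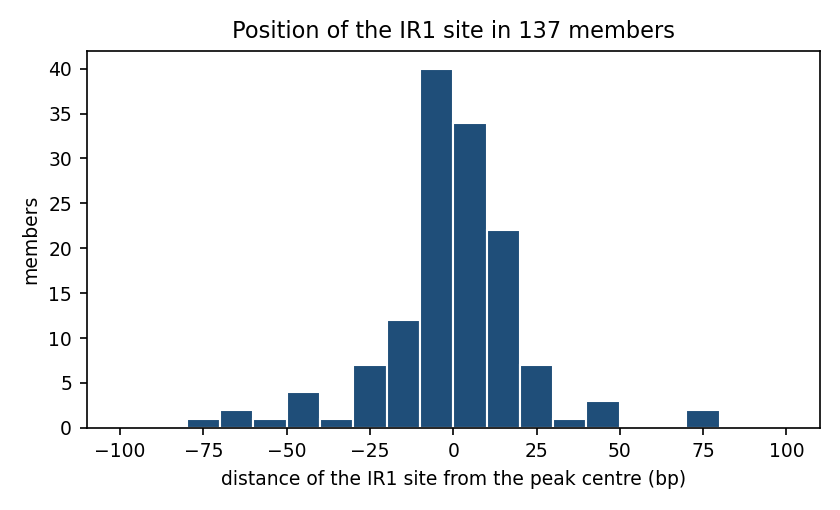
Histogram of the distance between the IR1 match and the peak centre, in bins of 10 bp, for the 137 members with a match of at most 2 mismatches. The counts are highest in the bins on either side of 0 and 131 of the 137 matches lie within 50 bp of the centre.

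Of the 21 arrangements of 2 AGGTCA half-sites searched (inverted, everted and direct repeats with spacers of 0 to 6 bases, on both strands, at most 2 mismatches), IR1 was the most frequent among the members. The next was the everted repeat with a 2-base spacer, ER2, TGACCTNNAGGTCA, found in 61 members (12.2%, 9.62 to 15.4%), against 5.36% of all WT peaks and 1.2% of the windows 2 kb away. Of these 61 members, 26 also held IR1, and IR1 or ER2 was present in 172 members (34.4%). The direct repeat with a 1-base spacer (DR1), which HNF4A and PPARα bind, was found in 10.4% of members and 12.8% of all WT peaks. An exact AGGTCA half-site was present in 43.2% of members, 40.3% of all WT peaks and 13.4% of the windows. Since the arrangements share half-sites, a single stretch can be counted under more than 1 of them. With neither IR1 nor an exact half-site, 243 members (48.6%) remained, which says only that these letters were not found in the window.

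Motifs of other liver factors were searched in the same windows, and their shares do not rank against each other because the motifs differ in length and in mismatches allowed. TGTTTAC (FOXA) was present in 8.2% of members and 6.71% of all WT peaks, TTGCGCAA with at most 1 mismatch (C/EBP) in 8.2% and 8.32%, and TCAAGGTCA with at most 1 mismatch (NR5A2, which contains the half-site) in 12% and 15.1%. TTCNNNGAA, the palindrome of STAT factors that overlaps the sites of BCL6, was present in 7.2% of members, 6.56% of all WT peaks and 6.0% of windows 2 kb away.

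**Figure D4:**
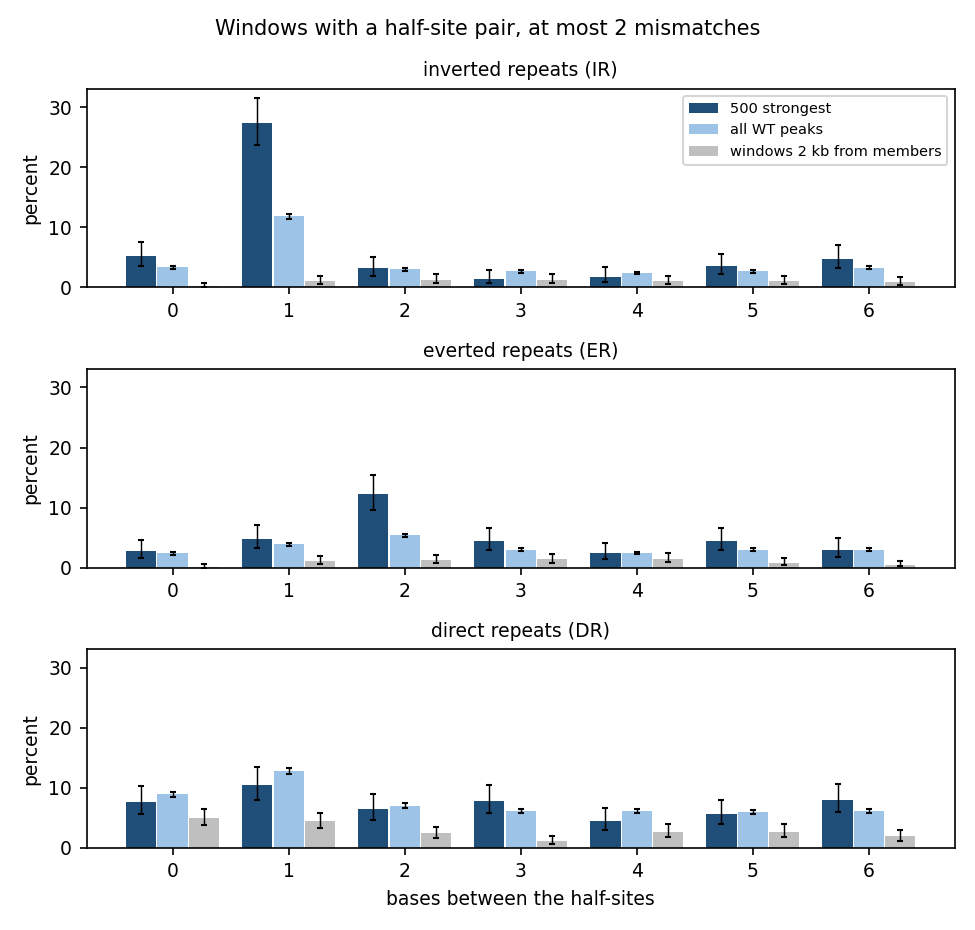
Percent of windows of 100 bp to either side of the centre that hold 2 AGGTCA half-sites in each arrangement, by the number of bases between the half-sites, for the members, all WT peaks and windows 2 kb from the members; error bars are 95% Wilson intervals. IR1 reaches 27.4% and ER2 12.2% of members, and the other arrangements stay at or under 10.4%.

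The 3 highest-scoring members were tandem arrays, as the whole sequences above show. This feature was measured after those sequences had been seen. An array was counted where at least 50% of the bases of a peak equalled the base a fixed distance, between 8 and 70 bp, further along. The Fcna peak was a repeat of 27 bp with 92.4% identity between successive units, and each of its 8 units held an IR1 match of at most 3 mismatches, 3 of them with at most 2. The Ptgds peak repeated with a period of 15 bp (67.3% identity) and the Arhgef7 peak with a period of 38 bp (53.8%), with 2 and 3 IR1 matches of at most 3 mismatches. In total 10 members (2.0%, 1.09 to 3.64%) were arrays, 5 of them among ranks 1 to 100. Arrays made up 0.504% of all WT peaks and 2.6% of the windows 2 kb from members. The WT input values of the 10 arrays were between -0.04 and 1.36. In the LKO table, which is scaled separately, the input values of the 8 arrays with an LKO peak ran from 0.07 at Tmem50a to 2.996 at Gm1653, the latter over the LKO limit of 2.49, and those of Ptgds, Fcna and Arhgef7 were 1.93, 1.88 and 1.89. The LKO input value was above the WT value in 419 of all 497 members with an LKO peak. The same count over all shared peaks was not made and the 2 tables are scaled separately, so nothing is read from it.

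At least 2 separate IR1 matches of at most 2 mismatches were found in 10 members (2.0%), against 0.284% of all WT peaks and none of 1000 windows, which allows a share of up to 0.383%. These were assigned to Fcna, Mafg, Rwdd3, Usp18, Myo1e, Abcb11, Map3k1, Arhgap18, Dhrs9 and Trrap. The Trrap peak held 4 and the Fcna peak 3.

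An LKO peak overlapped 497 of the 500 members (99.4%, 98.3 to 99.8%). The LKO list was shorter, with 12495 peaks against 20040 in WT. Of all WT peaks, 49.5% had an overlapping LKO peak, and of ranks 501 to 1000, 99.2%, so a share near 99% was not limited to the members. The centres of the overlapping peaks were a median of 7 bp apart. The 3 members without an LKO peak were at Zfhx2os, Mir101c and Trrap. The Zfhx2os site (chr14:55079631-55079841, intron 1 of Zfhx2, score 267.5) held an estimated 461 tags in WT replicate 1 and 97.6 in replicate 2, and the nearest LKO peak was 12.7 kb away. The Mir101c site (chr9:3006725-3006935, score 163.9) was repeat-masked over 100% of its length, and the nearest LKO peak was 1303 kb away. The Trrap site, in intron 13 of this adaptor subunit of histone acetyltransferase complexes, scored 144.3 with 246 and 49.4 estimated tags, and the nearest LKO peak was 20.2 kb away, although its array held the 4 IR1 matches noted above. The LKO libraries have no value at these 3 positions in the deposited tables, so their LKO signal was not analysed here.

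Under the same rule applied to the LKO table, 313 members (62.6%, 58.3 to 66.7%) were among its own 500 strongest peaks. Their median LKO rank was 377, and 88.6% were within the first 1000 LKO peaks and 97.0% within the first 2000. An LKO peak over the LKO input limit was found for 83 members (16.6%). That limit was the 95th percentile of the input column over all LKO peaks. The share among LKO peaks of similar strength was not computed. Whether the input values follow ChIP strength was not tested, so nothing is read from the count. By LKO Peak Score alone, with no limit, 313 members were likewise among the first 500. The share in the LKO list's own 500 was 82 of the first 100 members, then 79, 58, 50 and 44 in the following groups of 100. In the other direction, 497 of the 500 strongest LKO peaks had a WT peak, 91 of them over the WT input limit. For the same reason nothing is read from the number over the WT limit. Across the 497 members with an LKO peak the 2 Peak Scores had a Spearman correlation of 0.698.

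**Figure D5:**
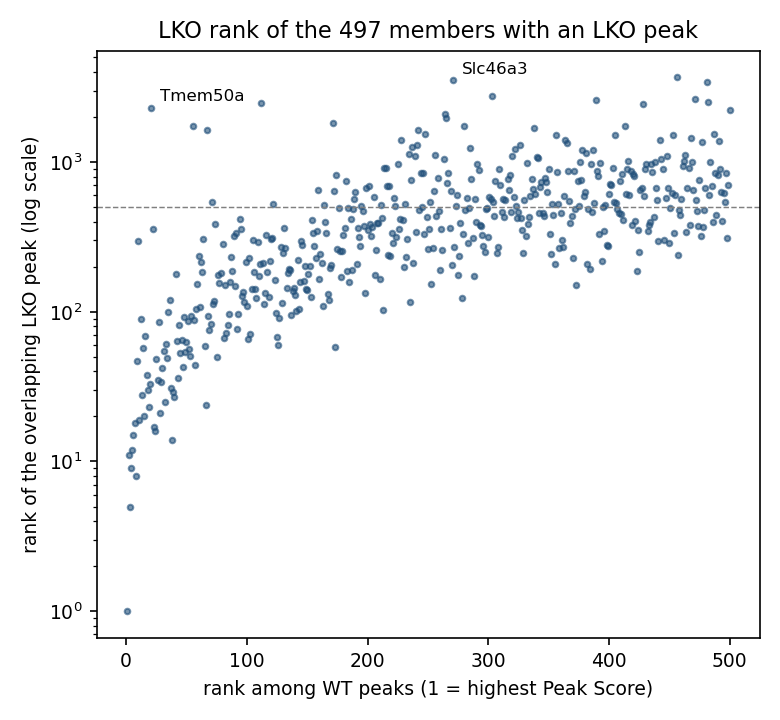
Rank of the overlapping LKO peak among all LKO peaks by Peak Score (log axis) against the rank of the member, for the 497 members with an LKO peak; the dashed line is LKO rank 500. The strongest members keep low LKO ranks, the middle ranks spread on both sides of the line, and Tmem50a (LKO rank 2316) and Slc46a3 (LKO rank 3519) are labelled far above it.

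The relative log2 level of the members differed between LKO and WT by a median of -0.02 (quartiles -0.32 and 0.22, n = 497), and over all 9918 shared peaks by 0.03. The members' median was 0.03 for LKO replicate 1 against WT replicate 1, 0.13 for LKO replicate 2 against WT replicate 1, and -0.16 and -0.07 for the same LKO libraries against WT replicate 2. The sign thus depended on the WT library, and no shift of the members relative to the shared peaks was seen beyond the spread of the libraries. Centring removes any shift common to all shared peaks, so these values cannot show one. The median Peak Score of the overlapping LKO peaks was 92.7, against 178.5 for the members in WT, the score by which they were chosen. That difference was not tested. No median score over all shared peaks was computed, so a general difference between the pooled libraries cannot be told apart from one at the members. Both LKO values lay above both WT values in 135 members (27.2%), where 29.8% of all shared peaks did, and below both in 162 members (32.6%), where 25.2% of all shared peaks did. Since the members were selected on high WT values, values below WT are favoured by the choice itself and nothing is read from these counts. Members with an IR1 match had a median difference of 0.12 (quartiles -0.09 and 0.33, n = 136) and the others of -0.08 (-0.36 and 0.16, n = 361). These ranges overlapped, and the contrast was neither split by library nor tested.

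The lowest difference among the members, -2.40, was at a site assigned to Tmem50a (rank 21), itself a tandem array with a period of 19 bp. Its relative levels were 3.28 and 2.85 in WT and 0.54 and 0.80 in LKO, and its LKO peak ranked 2316. A site 14962 bp upstream of Ero1lb, an oxidoreductase of the endoplasmic reticulum, stood at 2.92 and 3.21 in WT and at 0.68 and 1.37 in LKO, a difference of -2.04. The site of Slc46a3, a lysosomal transporter, stood at 2.21 and 2.27 in WT and at 0.11 and 0.52 in LKO. The site assigned to Mettl14, a subunit of the m6A RNA methyltransferase, lay in an intron of Sec24d and had an IR1 match of 2 mismatches at its centre, with levels of 2.77 and 3.38 in WT and 1.25 and 1.08 in LKO. The fifth, assigned to 4930547E08Rik, stood at 2.74 and 2.51 in WT and at 0.93 and 0.63 in LKO. At each of these 5 sites the groups were separated by more than the distance between the libraries of a genotype. The 5 were picked as the lowest differences among members whose WT and LKO values did not overlap, and members were chosen on high WT values. The separation therefore follows in part from the choice.

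The largest difference above 0 among the members, 0.91, was at the Slc6a6 site of rank 373, an intergenic site 23.8 kb upstream, with 2.08 and 1.75 in WT and 2.73 and 2.93 in LKO. The other two Slc6a6 sites, both in intron 2, had mean levels of 2.97 ± 0.24 in WT and 2.97 ± 0.03 in LKO, and of 2.73 ± 0.05 and 2.78 ± 0.30 (SD, n = 2). At Cnn3, whose member held an exact IR1, the levels were 2.38 and 2.72 in WT and 3.23 and 3.34 in LKO. The second Sqstm1 site (rank 213) stood at 2.38 and 2.29 in WT and at 3.06 and 3.06 in LKO, and the stronger Sqstm1 site (rank 47) at 2.99 and 3.12 in WT and 3.31 and 3.47 in LKO. The sites of Mir365-2 and Rbm17 had differences of 0.67 and 0.65. Each of these 5 sites likewise had both LKO values above both WT values, a condition by which they were picked from the 497 members.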

How the data were processed

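FXR ChIP-seq and input libraries of WT and LKO liver were analysed from 1 deposited peak table per genotype. Per the methods of the study, chromatin was crosslinked with DSG and formaldehyde, precipitated with antibody E4B8P, sequenced single-end and aligned to mm10, and the mice were fed ad libitum or fasted briefly. The submitters' processing notes name Bowtie 1.2 and HOMER 4.10. The authors pooled the 2 ChIP libraries of each genotype, called peaks over input with HOMER, and kept peaks that DESeq2 placed over input (log2 fold over 1, adjusted p-value below 0.05). There is no peak list per replicate. The Peak Score deposited is a signal, tags of the pooled libraries scaled to 10000000. The focus ratio deposited is a fraction. The input and ChIP values deposited are regularized log2 tags, scaled within a table. Class, nearest gene and distance to the start site were those of the authors. The deposited columns of ChIP against input (fold change, p-value, adjusted p-value) were not used.

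The members and gene lists were chosen with earlier results of these data known. Overlap required 1 bp. Log2 values were centred on the median of shared peaks in each library. Estimated tags came from the regularized log2 values and the library totals, so they are approximate. Motifs were searched in GRCm38.p6, which has the coordinates of mm10, within 100 bp of peak centres. The authors' start site distances matched RefSeq within 2 bp for 466 of 497 members with a matched transcript. Sequences are from RefSeq's GRCm38.p6. Overlap and motif code was tested on simulated data. Sites named were the 10 highest scores, those of listed genes (up to 4 sites for each list beyond the bile acid ones), those without an LKO peak, genes with at least 3 members, the 5 lowest and 5 highest LKO minus WT differences without overlap, the 5 highest-scoring near-exact IR1 sites, the threshold and the 5 strongest rows over the input limit; Apoe and the array, multiple-site, paired, exact-IR1 and holding-gene examples were named after their values were seen. Wilson 95% intervals cover counting error over peaks, not variation between mice. The software was matplotlib 3.10.9, scipy 1.17.1, pandas 2.3.3 and numpy 2.4.6 under Python 3.11.15. The value of 1 member at the threshold is not reported here. Alternatives covered the input limit, ranking library, number of rows, overlap rule, centring, promoter definition and motif stringency.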

Additional observations from a re-analysis of the deposited data

How the results depend on the processing

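No paired analysis was possible because no result came from a test. Of 33 alternatives, 24 kept the value reported (within its error, or for the number of genes within 1.5 times), 7 moved and 2 reversed. Without the limit on input, 96.8% of the 500 highest-scoring peaks had an LKO peak, 72.6% were in the LKO list's own 500, and 21.2% were in promoters. This set shared 360 of its peaks with the members. Counting peaks centred within 1 kb of a start site as promoters gave 17.4%. The IR1 share was 5.4% with at most 1 mismatch and 62.0% with at most 3, the latter chosen after seeing the data (9.6% of peak-length windows 2 kb away matched at 3). The median LKO minus WT level was -0.35 without centring. Leaving out each of the 4 ChIP libraries gave medians between -0.11 and 0.073, the latter without WT replicate 2, and 0.029 without LKO replicate 1. Ranking by WT replicate 1 alone shared 487 members and by the shallow WT replicate 2 alone 441. Leaving out either WT library gave an LKO overlap of 99.4% and promoters at 13.6% both times and IR1 at 27.2 to 27.6%; leaving out any of the 4 ChIP libraries gave a share in the LKO list's own 500 of 60.0 to 63.2%. Assigning only sites within 100 kb left 427 genes. Tables are scaled separately, the WT ranking rests mainly on WT replicate 1, peaks were called on pooled libraries, and each genotype has 2 ChIP libraries, so differences at single sites have no test.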
